A study of Mus musculus with 9 samples.

Results

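The genes described here mark Kupffer cells, the macrophages resident in the liver, and macrophages at large. They are the 10 genes of the deposited count table, out of 54393, that carry the symbols Clec4f, Timd4, Vsig4, Marco, Cd5l, Adgre1, Csf1r, C1qa, C1qb and Cd68. The first 5 are markers of resident Kupffer cells and the other 5 are expressed by most tissue macrophages. They were taken by symbol, with earlier results of these data known, and all 10 passed the filter on low counts, which kept 14873 genes.

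Liver RNA was sequenced from mice of the strain given as C56Bl/6j on the AIN-76a diet. The control group (5 libraries, replicates 1 to 5) received no antibiotics. The antibiotics group (4 libraries, replicates 1, 2, 3 and 5) received antibiotics that are not taken up from the gut, given to deplete the gut microbiota. Strain and diet are the same in all 9 libraries, and the labels name no agent, dose, duration, age or sex.

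Kupffer cells line the liver sinusoids, where portal blood carries material from the gut past them, and they clear microbes, debris and aged red blood cells. They are maintained by signalling through the receptor Csf1r, take up complement-coated particles through Vsig4, apoptotic cells through Timd4 and bacteria through the scavenger receptor Marco. C1q, the recognition molecule of the classical complement pathway, is made largely by macrophages.

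Library totals ran from 15422891 to 59179622 estimated counts. Antibiotics 5 was the deepest library and the other 3 antibiotics libraries were shallower than every control. Control 2 stood apart from the other 8 libraries in the genes described here, so the fold changes are given with and without it. Its total (49628737) and its mitochondrial share of counts (4.76%, within the 4.34% to 7.35% of all libraries) did not stand apart. Its median over all tested genes was 0.993 times the other controls. However, the scaling of the libraries makes this median nearly equal in all of them. Between the groups, the mitochondrial share was 6.37%, 7.35%, 7.08% and 5.19% in antibiotics 1, 2, 3 and 5 and 4.34% to 6.55% in controls. The 13 mitochondrially encoded mRNAs had a median log2 fold change, antibiotics minus control, of 0.32, or 0.29 without control 2. The cause was not tested. Whether each library came from its own mouse is not stated, so p-values measure only the spread between these libraries. In whole liver, fewer macrophages and less RNA per macrophage cannot be told apart.

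All 10 genes were highest in control 2, at 2.09 times (Vsig4) to 5.05 times (Marco) the median of the other 4 controls, with a median of 2.36. Among all 14873 tested genes, 10.5% were highest in control 2 and 5.79% reached 1.5 times the median of the other controls there. Summed over the 10 genes, control 2 held 622 CPM (normalised read counts, scaled to a common library size with TMM factors), the other controls held 208 to 292 and the antibiotics libraries 215 to 274.

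Between antibiotics and control, 0 of the 10 genes passed edgeR's quasi-likelihood test at an adjusted p under 0.05, where 2.68% of all tested genes passed (1.63% higher and 1.05% lower with antibiotics). DESeq2, which called 6.68% of the genes it tested, and limma-voom also called 0 of the 10, and 0 had an unadjusted edgeR p under 0.05, against 18.5% of all tested genes. The 2 groups overlapped for each of the 10 genes, where they did not for 8.88% of all tested genes. All 10 fitted log2 fold changes were below 0 (51.4% of all tested genes were), with a median of -0.43, or 0.742-fold. Without control 2 that median was -0.09 (0.943-fold), 7 of 10 were below 0 (50% of 14583 tested genes), and again 0 passed, where 1.13% of all tested genes did; 0 had an unadjusted p under 0.05, where 16.3% did.

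**Figure D1:**
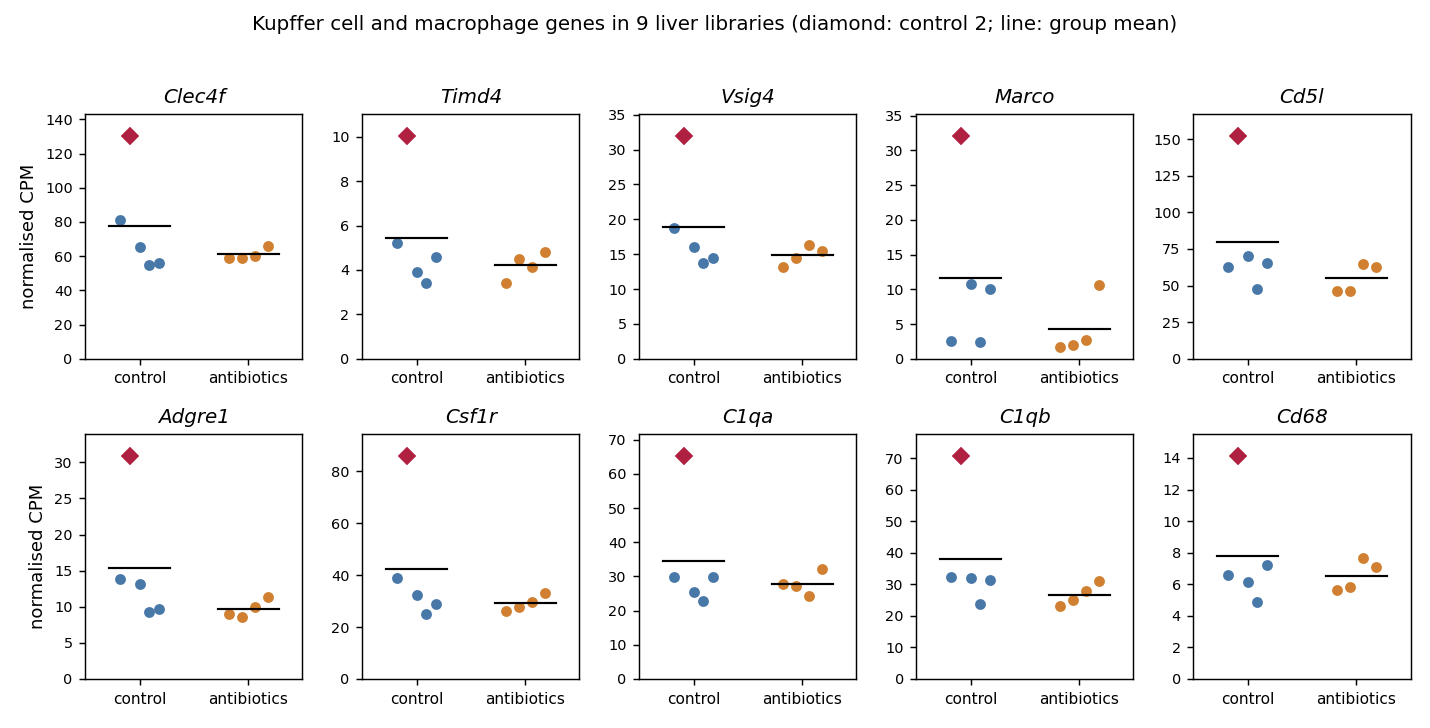
Normalised CPM of the 10 genes in each library, with resident Kupffer cell markers in the upper row and pan-macrophage genes in the lower; points are libraries, the diamond is control 2 and the lines are group means. In every panel control 2 lies above the other 8 libraries, and Marco also has antibiotics 5 (10.7 CPM) far above the rest of its group.

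Clec4f encodes a C-type lectin that in the mouse is largely restricted to Kupffer cells (chromosome 6, 83644542 to 83656187, GRCm38, minus strand). Its level was 80.9, 130.1, 65.1, 55.0 and 56.1 CPM in controls 1 to 5 and 59.1, 58.7, 60.3 and 65.8 CPM in antibiotics 1, 2, 3 and 5. The antibiotics libraries lay close together, inside the range of the controls. The antibiotics mean was 61.0 ± 3.31 CPM (SD, n = 4) against 77.4 ± 31.2 CPM in controls (SD, n = 5), or 64.3 ± 12.0 CPM in the 4 controls other than control 2. The log2 fold change was -0.34 ± 0.22 (SE, edgeR adjusted p = 0.447) and, without control 2, -0.07 ± 0.12 (adjusted p = 0.834), an interval of 0.795-fold to 1.14-fold.

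Timd4 encodes TIM-4, a receptor for phosphatidylserine on dying cells that marks Kupffer cells of embryonic origin (chromosome 11, 46810800 to 46844332, plus strand). Per length of transcript it was at the low end of the 10 with Marco, which lay below it in 5 of the 9 libraries. Its level was 5.2, 10.02, 3.9, 3.4 and 4.6 CPM in the controls and 3.4, 4.5, 4.1 and 4.8 CPM in the antibiotics libraries. Apart from control 2 the groups covered nearly the same range. The log2 fold change of -0.36 ± 0.29 (SE, edgeR adjusted p = 0.552) became 0.0017 ± 0.17 without control 2 (95% interval 0.775-fold to 1.29-fold).

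Vsig4 encodes the complement receptor CRIg, which binds C3b-coated particles (chromosome X, 96247203 to 96293438, minus strand). Controls 1 to 5 held 18.7, 31.9, 16.1, 13.7 and 14.4 CPM, and the antibiotics libraries 13.1, 14.5, 16.3 and 15.4 CPM. Control 2 was again the highest, and control 1 came next. Antibiotics minus control, the log2 difference was -0.36 ± 0.22 (SE, edgeR adjusted p = 0.435) over 9 libraries and -0.08 ± 0.11 (adjusted p = 0.802) without control 2.

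Cd5l encodes AIM, a secreted scavenger-receptor protein made by tissue macrophages (chromosome 3, 87357881 to 87371073, plus strand). Its level was 62.8, 151.9, 70.2, 47.8 and 65.3 CPM in the controls and 46.0, 46.4, 64.7 and 62.8 CPM with antibiotics. Antibiotics 1 and 2 were the lowest of the 9 libraries, but control 4 was within 2 CPM of them. The log2 fold change was -0.53 ± 0.29 (SE, edgeR adjusted p = 0.355) and -0.15 ± 0.15 (adjusted p = 0.667) without control 2.

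Marco encodes a scavenger receptor for bacteria and particles, present on a subset of Kupffer cells (chromosome 1, 120474538 to 120505024, minus strand). Its level was 2.6, 32.0, 10.8, 2.4 and 10.1 CPM in the controls and 1.7, 2.0, 2.8 and 10.7 CPM with antibiotics. Thus 4 libraries (controls 2, 3 and 5 and antibiotics 5) lay above 10 CPM and the other 5 below 3 CPM, and both kinds occurred in each group. The low values rested on 26 to 106 estimated counts, and the high ones on 274 to 1540. Its log2 fold change had the widest error of the 10, -1.29 ± 0.77 (SE, edgeR adjusted p = 0.408), with an interval of 0.127-fold to 1.32-fold. Without control 2 it was -0.43 ± 0.64 (adjusted p = 0.807), and without antibiotics 5 it was -2.42 (adjusted p = 0.223).

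Adgre1 encodes F4/80, the surface protein most used to identify mouse macrophages (chromosome 17, 57358691 to 57483527, plus strand). Its level was 13.8, 30.8, 13.2, 9.3 and 9.7 CPM in the controls and 9.0, 8.5, 10.001 and 11.4 CPM with antibiotics. The range of the antibiotics libraries included controls 4 and 5 and lay below controls 1, 2 and 3. Of the 10 genes it had the smallest p, with a log2 fold change of -0.65 ± 0.32 (SE, edgeR adjusted p = 0.307, 95% interval -1.35 to 0.05). Without control 2 the change was -0.22 ± 0.15 (adjusted p = 0.527).

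Csf1r encodes the receptor for CSF1 and IL34, on which macrophages depend for survival (chromosome 18, plus strand). Controls held 39.0, 85.6, 32.4, 25.02 and 28.8 CPM and antibiotics libraries 26.2, 27.7, 29.7 and 33.1 CPM. Control 2 had 2.20 times the level of the next highest library, control 1. This gave a log2 fold change of -0.53 ± 0.31 (SE, edgeR adjusted p = 0.401), and -0.09 ± 0.13 (adjusted p = 0.796) without control 2. Exons of Csf1r share 873 bases with Hmgxb3 on the opposite strand. Whether the counting used strand is not given, so some of its counts may belong to that gene. None of the other 9 genes had an exon overlap or a copy of at least 95% identity over 200 nt.

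C1qa and C1qb encode the A and B chains of C1q and lie close together on chromosome 4 (136895917 to 136898803 and 136880129 to 136886187, both minus strand), with C1qc, the gene of the C chain, between them. C1qa had 29.7, 65.1, 25.5, 22.9 and 29.9 CPM in controls and 27.7, 27.3, 24.2 and 32.1 CPM with antibiotics. C1qb had 32.4, 70.5, 31.9, 23.9 and 31.3 CPM in controls and 23.0, 24.98, 27.8 and 31.0 CPM with antibiotics. In both, control 2 stood alone and the other libraries of the groups were interleaved. The log2 fold changes were -0.32 ± 0.27 for C1qa (SE, edgeR adjusted p = 0.575) and -0.51 ± 0.27 for C1qb (adjusted p = 0.343). Without control 2 they were 0.052 ± 0.11 and -0.15 ± 0.12. C1qc had a log2 fold change of -0.36 ± 0.27 (SE) and 0.0030 ± 0.11 without control 2. Per kilobase of exon, the level of C1qa was 0.839 to 1.26 times that of C1qb in the 9 libraries, and that of C1qc 0.386 to 0.522 times.

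Cd68 encodes a lysosomal glycoprotein of phagocytes (chromosome 11, 69664213 to 69666153, minus strand). It had 6.6, 14.1, 6.2, 4.9 and 7.2 CPM in controls and 5.6, 5.8, 7.7 and 7.1 CPM with antibiotics. Antibiotics 3 was the highest library after control 2. The log2 fold change of -0.25 ± 0.27 (SE, edgeR adjusted p = 0.678) was the smallest of the 10, and without control 2 it was 0.095 ± 0.15 (adjusted p = 0.824).

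**Figure D2:**
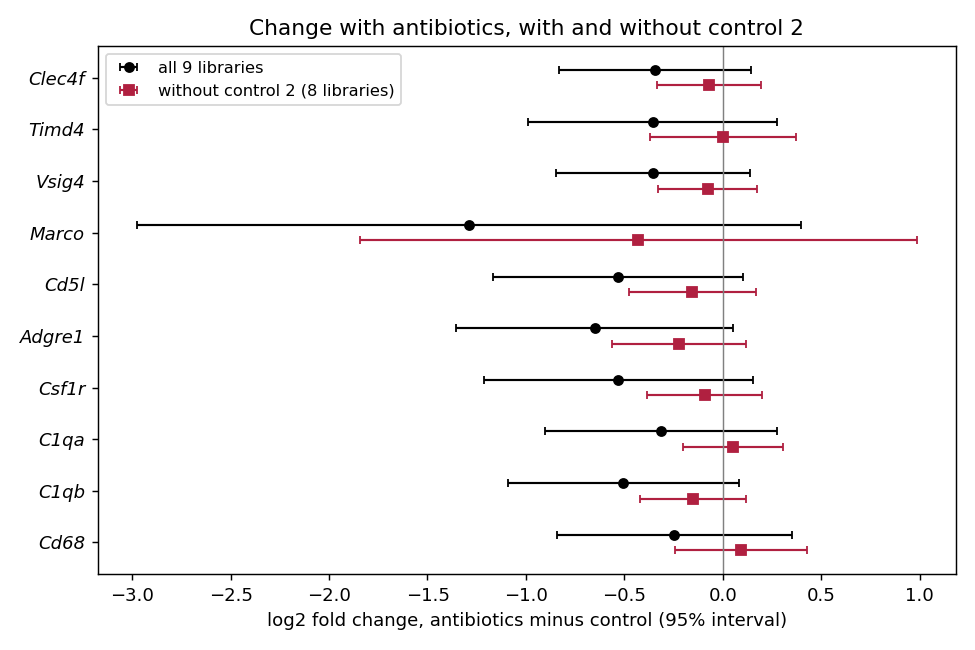
Fitted log2 fold change of each gene, antibiotics minus control, with 95% intervals from edgeR, over all 9 libraries (black circles) and without control 2 (red squares). Every interval includes 0; without control 2 the values lie closer to 0, between -0.43 for Marco and 0.095 for Cd68, and all intervals are narrower.

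The promoters were searched for motifs of macrophage factors, as a description of the genes. The windows are reference sequence, the same for every library, so they cannot tell control 2 from the others. Windows are shown for 4 genes that hold the motif marked below in capitals (Vsig4, Cd5l, C1qb and Marco, which varied most between libraries) and for Timd4, which lacks it. RefSeq start sites (GRCm38.p6) were matched for 7 of the 10 genes: Clec4f, Timd4, Vsig4, Marco, Cd5l, C1qb and Cd68. Each window is the 250 bases before the start site, written 5′ to 3′ on the strand of the gene. Capitals mark GAGGAA, the core recognised by PU.1, the lineage-determining factor of macrophages encoded by Spi1, or its reverse complement TTCCTC.
Vsig4 (chrX:96293439-96293688, minus strand): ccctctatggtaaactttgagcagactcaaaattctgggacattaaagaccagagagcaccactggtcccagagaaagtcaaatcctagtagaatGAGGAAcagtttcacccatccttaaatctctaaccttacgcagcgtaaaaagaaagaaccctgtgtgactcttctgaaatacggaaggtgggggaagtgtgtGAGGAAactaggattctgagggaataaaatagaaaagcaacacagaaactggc
Cd5l (chr3:87357631-87357880, plus strand): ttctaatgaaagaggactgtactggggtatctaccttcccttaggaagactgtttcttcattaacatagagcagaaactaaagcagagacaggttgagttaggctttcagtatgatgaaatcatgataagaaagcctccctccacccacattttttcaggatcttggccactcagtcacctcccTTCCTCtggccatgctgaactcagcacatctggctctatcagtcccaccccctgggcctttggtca
C1qb (chr4:136886201-136886450, minus strand): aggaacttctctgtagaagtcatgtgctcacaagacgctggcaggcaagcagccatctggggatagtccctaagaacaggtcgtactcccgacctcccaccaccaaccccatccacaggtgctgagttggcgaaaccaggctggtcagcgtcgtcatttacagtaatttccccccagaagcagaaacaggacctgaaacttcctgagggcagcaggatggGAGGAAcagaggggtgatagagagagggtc
Marco (chr1:120505025-120505274, minus strand): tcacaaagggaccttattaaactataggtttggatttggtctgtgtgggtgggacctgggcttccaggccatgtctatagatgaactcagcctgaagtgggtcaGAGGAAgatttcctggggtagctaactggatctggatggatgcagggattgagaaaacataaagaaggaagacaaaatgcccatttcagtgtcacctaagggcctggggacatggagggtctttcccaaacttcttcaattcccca
Timd4 (chr11:46810549-46810798, plus strand): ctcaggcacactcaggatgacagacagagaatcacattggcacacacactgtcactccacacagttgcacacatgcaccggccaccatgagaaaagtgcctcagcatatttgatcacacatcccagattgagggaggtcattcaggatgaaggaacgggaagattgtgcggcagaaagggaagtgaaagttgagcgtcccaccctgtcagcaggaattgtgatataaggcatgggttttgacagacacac
The motif GAGGAA, searched on both strands, occurred in 5 of the 7 windows (2 times in Vsig4 and in Marco, Cd5l, C1qb and Cd68), and in 23.3% of 32851 RefSeq windows of the same length. Its match in C1qb began 30 bases before the start site, those in Vsig4 155 and 53, that in Cd5l 66 and that in Marco 146. The joint site for PU.1 and IRF factors occurred in 1 of the 7 windows, that of Timd4, against 2.3% of all windows. TGCTGA, the core of the site bound by MAF factors, occurred in 4 (Clec4f, Timd4, Cd5l and C1qb), against 16.1%. None of the joint or TGCTGA matches overlapped a GAGGAA match. Spi1 itself, named here for its motif after its values were seen, had 4.74 CPM in control 2. It had 1.81 to 2.36 CPM in the other controls and 1.90 to 2.30 CPM with antibiotics. Spi1 is also a macrophage gene, and a link between its level, the motifs and the 10 genes was not tested.

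Per kilobase of annotated exon, the mean level over the 9 libraries was highest for Cd5l (33.7 ± 16.0, SD, n = 9), followed by C1qa (30.4 ± 12.4), C1qb (30.3 ± 13.4) and Clec4f (28.4 ± 9.63), in CPM per kilobase. These 4 did not differ beyond their spread. Vsig4 (11.5 ± 3.90) came next, separated from Clec4f above it and Csf1r below it by more than the SD of either, and then Csf1r (6.30 ± 3.28), Cd68 (5.75 ± 2.16), Marco (4.33 ± 5.06), Adgre1 (3.97 ± 2.16) and Timd4 (2.25 ± 0.930). From Csf1r down, neighbours differed by less than the larger of their SDs. These SDs are between libraries and do not compare genes within a library. Within each of the 9 libraries Timd4 lay below Adgre1, at 0.439 to 0.789 times its level. Without control 2 the first 7 kept their order, from Cd5l (28.6 ± 4.82, SD, n = 8) to Cd68 (5.07 ± 0.746), but Adgre1 (3.28 ± 0.613) came before Marco (2.79 ± 2.22) and Timd4 (1.95 ± 0.302) last. Adgre1 then lay below Cd68 by more than the SD of either, and Marco did not differ from Adgre1 or Timd4 beyond its spread.

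Control 2 stood less apart in the proportions among the genes than in their levels. Relative to Adgre1, per kilobase, Csf1r ranged 1.32-fold over the 9 libraries, Cd5l 1.49-fold, Clec4f 1.63-fold, Vsig4 1.64-fold, Cd68 1.68-fold and Timd4 1.80-fold. Control 2 had the lowest ratio of Clec4f to Adgre1, 5.53, where the other 8 libraries had 6.45 to 9.02. It also had the lowest ratio of Vsig4 to Adgre1, 2.26, against 2.65 to 3.71. The ratio of Marco to Adgre1 ranged 5.53-fold, from 0.317 in antibiotics 1 to 1.75 in control 5, and that of Marco to Clec4f 8.56-fold, from 0.0369 to 0.316.

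**Figure D3:**
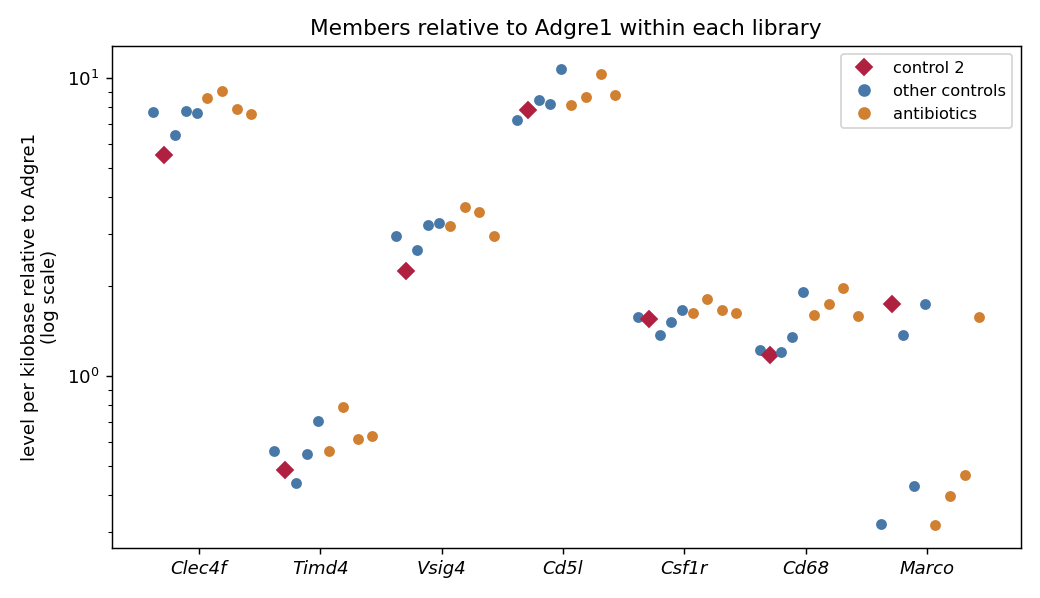
Level per kilobase of 7 genes relative to Adgre1 within each library, on a log scale; each point is 1 library, in replicate order within each group, and the diamond is control 2. For 6 genes the 9 libraries lie within 1.80-fold, whereas Marco has 4 libraries at 1.37 to 1.75 and 5 at 0.317 to 0.465.

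Over the 9 libraries the Pearson correlation of log2 CPM between the 10 genes, taken in 45 pairs, had a median of 0.927, from 0.636 (Clec4f with Marco) to 0.989 (Vsig4 with Csf1r). Without control 2 the median over the 8 libraries was 0.623, from 0.0761 (Clec4f with Marco) to 0.939 (Clec4f with Csf1r). These are descriptions: the points share library depth and scaling, and 1 library set much of the first value. Among 12449 genes averaging 1 CPM or more, those whose log2 level was most like the mean of the 10 were Slfn2 (r = 0.988), Adcy4 (0.982), Cfp (0.981), Nfam1 (0.976) and Tmsb4x (0.9754), over 9 libraries. Cfp encodes properdin, a positive regulator of the alternative complement pathway, and Tmsb4x encodes the actin-binding thymosin beta 4. Without control 2 their correlations over 8 libraries were 0.932, 0.917, 0.889, 0.939 and 0.864. With each group centred on its own mean, Lbh (0.977) replaced Tmsb4x among the first 5.

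Among the genes most like Marco, looked for after its values were seen, were Coro1a (r = 0.962 over 9 libraries), Fgr (0.959), Csf2rb (0.953) and Nup210 (0.925). Coro1a encodes an actin regulator of leukocytes, Fgr is a Src-family kinase of myeloid cells, and Csf2rb encodes the beta chain shared by the receptors for GM-CSF, IL-3 and IL-5. Without control 2, over 8 libraries, these correlations were 0.934, 0.925, 0.912 and 0.858. Coro1a, for example, had 4.59, 3.07 and 3.60 CPM in controls 2, 3 and 5 and 3.28 CPM in antibiotics 5, and 2.35 to 2.56 CPM in the other 5 libraries.

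Other genes of macrophage biology were taken in 6 lists, 70 genes in all, of which 65 were tested. By edgeR 0 of the 65 passed (2.68% of all tested genes did), DESeq2 called 1, Hmox1 (6.68% of all), and limma-voom 0. An unadjusted p under 0.05 was found for 6, where 18.5% of all tested genes had one, and the median log2 fold change was -0.25, beside -0.01 over all tested genes. Without control 2, 0 of 64 passed (1.13% of all), 6 had an unadjusted p under 0.05 (16.3% of all) and the median was -0.06, beside 0.00 for all genes (-0.00014). In control 2, 28 of the 65 reached 1.5 times the median of the other controls, where 5.79% of all tested genes did. The same share stands beside the counts of single lists below. The filter that chose the 65 included control 2, so a gene could enter through its level there.

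Of 9 genes for ligands and niche signals, which include the Csf1r ligands Csf1 and Il34, 8 were tested and 0 passed. Il34 had a log2 fold change of 0.27 ± 0.20 (SE), or 0.39 ± 0.19 without control 2. Tgfb1, an inducer of Kupffer cell identity, had -0.22 ± 0.15, or -0.21 ± 0.16. Ccl2, a monocyte attractant under 1 CPM in every library, had -0.73 ± 0.51, or -0.76 ± 0.54. In control 2 this list had a median of 1.04 times the other controls and 0 of its genes reached 1.5 times, unlike the receptor Csf1r. Csf2 was at 0 in all 9 libraries.

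Among 16 other surface and scavenger genes, 0 passed, 14 were fitted below 0 (11 without control 2) and 9 reached 1.5 times the other controls in control 2. Folr2, a folate receptor of resident macrophages, had 8.35 ± 4.07 CPM without antibiotics (SD, n = 5) and 5.23 ± 0.787 CPM with them (SD, n = 4), a log2 fold change of -0.66 ± 0.29 (SE, edgeR adjusted p = 0.246), or -0.31 ± 0.16 without control 2. Cd36, a fatty acid and scavenger receptor that hepatocytes also express, went the other way, with 24.9 ± 7.84 CPM in controls and 35.5 ± 8.44 CPM with antibiotics (a log2 fold change of 0.50 ± 0.22, adjusted p = 0.253, or 0.60 ± 0.23 without control 2). Axl, which binds dying cells through Gas6, had -0.39 ± 0.20, which without control 2 was -0.17 ± 0.13.

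Of 12 lysosomal, signalling and effector genes, 0 passed and 11 were fitted below 0 (10 without control 2), and control 2 had a median of 2.08 times the other controls. Ctss, the lysosomal protease cathepsin S, had 26.9, 63.5, 28.2, 19.8 and 21.2 CPM in controls and 19.4, 21.0, 22.4 and 22.5 CPM with antibiotics, so that control 2 stood apart as it did for the marker genes. Its log2 fold change was -0.58 ± 0.30 and, without control 2, -0.16 ± 0.12. Lgmn, the lysosomal protease legumain, had a log2 fold change of -0.42 ± 0.14 (SE, edgeR adjusted p = 0.152) and -0.31 ± 0.13 without control 2. Hpgd, the enzyme that inactivates prostaglandins, had 0.36 ± 0.14 (adjusted p = 0.200) and 0.44 ± 0.14.

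Of 12 transcription factors of macrophages 0 passed, with a median log2 fold change of -0.05 (0.02 without control 2). Smad4, which transmits TGF-beta and BMP signals, had -0.20 ± 0.07 (SE, edgeR adjusted p = 0.181) and the same, -0.20 ± 0.08, without control 2. Tfec had -0.52 ± 0.32, or -0.30 ± 0.30 without control 2, and Rbpj, the nuclear effector of Notch, 0.14 ± 0.09, or 0.10 ± 0.09. In control 2 the list had a median of 1.17 times the other controls, and 4 of 12 genes reached 1.5 times.

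Of 7 genes for iron and haem recycling 0 passed. Hmox1, the haem oxygenase induced by haem and oxidants, had 15.1, 25.7, 13.7, 10.6 and 13.6 CPM in controls and 9.28, 10.98, 8.56 and 9.40 CPM with antibiotics. Antibiotics 2 alone lay above the lowest control. Its log2 fold change was -0.72 ± 0.22 (SE, edgeR adjusted p = 0.107) and -0.46 ± 0.12 (adjusted p = 0.0948) without control 2. With DESeq2 it passed, at -0.73 (adjusted p = 0.0241). The iron transporter Slc11a1 had -0.60 ± 0.30, or -0.24 ± 0.17 without control 2, and the haem transporter Slc48a1 -0.21 ± 0.13, or -0.11 ± 0.12. All 7 were highest in control 2, where 10.5% of all tested genes were, and 2 of them reached 1.5 times the other controls. Blvrb, named after its values were seen, was nearly level, with 69.77 CPM in control 2 and 69.75 CPM in control 5.

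Of 14 genes for microbial sensing and cytokines 10 were tested and 0 passed. Tlr2, a receptor for bacterial lipopeptides, had a log2 fold change of -0.36 ± 0.23 (SE), or -0.19 ± 0.21 without control 2. Il1b had -0.51 ± 0.44, or -0.28 ± 0.45, and the adaptor Myd88 -0.11 ± 0.10, or -0.09 ± 0.11. Nod2, Tnf, Il6 and Il10 were too low to test, with at most 17 counts in any library.

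**Figure D4:**
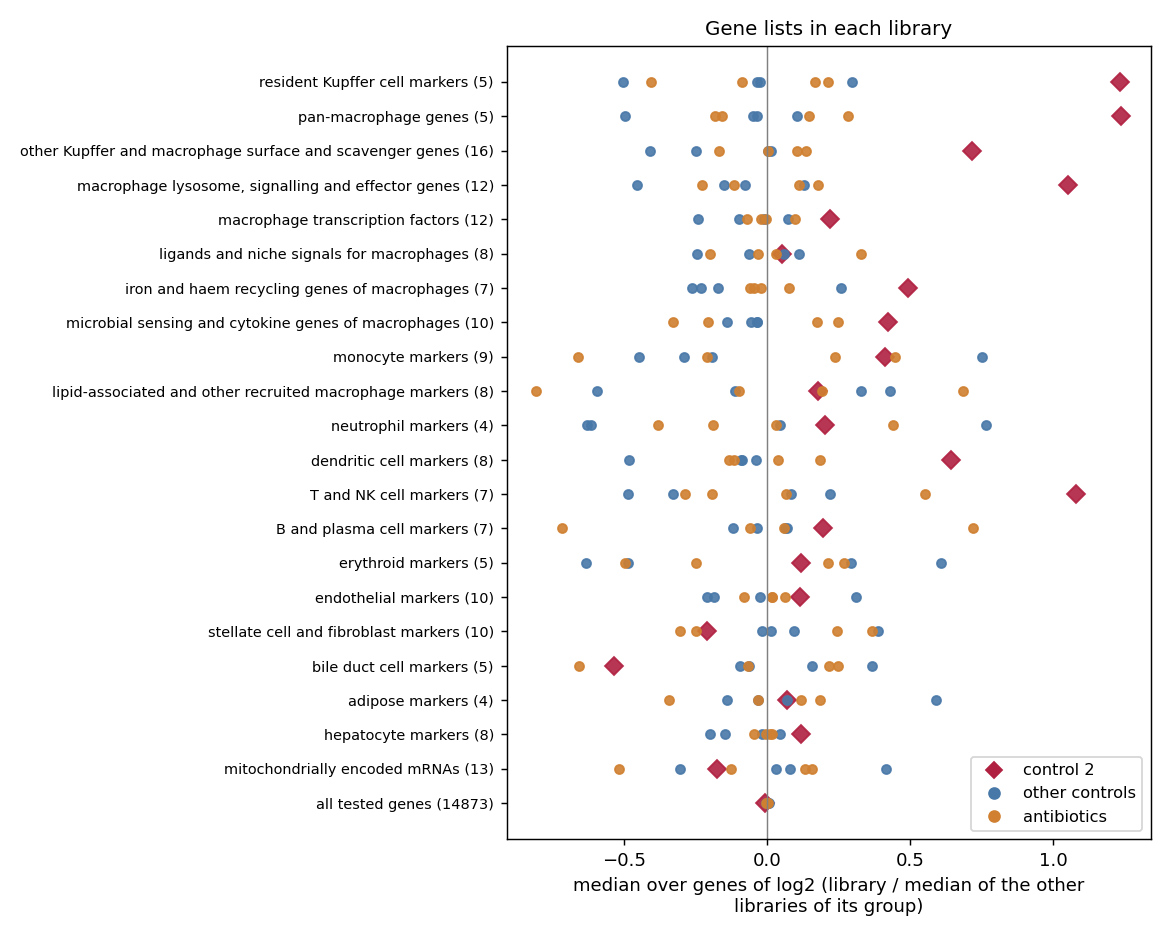
Median over the tested genes of each list (number in parentheses) of log2 of a library's level over the median of the other libraries in its group; the diamond is control 2. Control 2 lies at 1.23 and 1.24 for the resident Kupffer and pan-macrophage genes, and near 0 for endothelial and hepatocyte markers. All tested genes lie near 0 in every library because the scaling sets them there. Some lists of other leukocytes hold genes that passed the filter only through control 2, so their medians in it are not read.

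Markers of other cell types in control 2 are given for comparison, and their part in the result was not tested. Endothelial markers, of cells that line the same sinusoids, had a median of 1.08 times the other controls, and 0 of 10 reached 1.5 times; their summed level was 339 CPM in control 2, 286 to 381 CPM in the other controls and 300 to 321 CPM with antibiotics. Hepatocyte markers had a median of 1.09 times, with 0 of 8 at 1.5 times, stellate cell and fibroblast markers 0.872 times (0 of 10) and bile duct cell markers 0.683 times (0 of 5 tested). Erythroid markers had 1.07 times, with 0 of 5 tested at 1.5 times. These lists did not share the high level of the macrophage genes in control 2.

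Among lists of other leukocytes, T and NK cell markers, 12 genes, summed to 11.3 CPM in control 2, 3.45 to 5.33 CPM in the other controls and 3.96 to 5.36 CPM with antibiotics. Of these 12, 7 passed the filter on low counts with control 2 and 3 without it, so no count or median over those that passed is given. For dendritic cells, of whose 9 markers 8 passed with control 2 and 5 without it, the sum was mostly Bst2, which other cell types also express, at 166 CPM in control 2 and 104 to 148 CPM in the other controls. Summed monocyte markers were 16.1 CPM in control 2 and 10.1 to 17.9 CPM in the other controls, and neutrophil markers 5.16 and 3.08 to 6.04 CPM. The largest part of these sums in control 2 was Plac8 (7.71 CPM) and Csf3r (2.93 CPM), named after their values were seen. The sums therefore say little about the other genes of these lists. B and plasma cell markers had a median of 1.16 times the other controls, and their sum of 32.7 CPM in control 2, against 11.5 to 17.8 CPM, was mostly the immunoglobulin gene Ighm (28.3 CPM). Lipid-associated macrophage markers had a median of 1.09 times. For pancreatic acinar cells, which could be taken with the liver, 6 of 8 markers were at 0 in all libraries and the other 2 had at most 1 count in any library. Of 8 adipose markers, Adipoq, Plin1, Retn and Lep had at most 17 counts in any library, a value reached by Adipoq in antibiotics 3. The 4 tested ones, Cidec, Fabp4, Cfd and Car3, were all fitted higher with antibiotics. Car3 had 1851 CPM in antibiotics 1, where Adipoq, Plin1, Retn and Lep were at 0 counts. Whether the 4 tested genes reflect adipose tissue was not tested. Their median log2 fold change was 0.89, or 0.85 without control 2. By edgeR 0 of these 4 passed, and 2 had an unadjusted p under 0.05 (1 without control 2). In control 2 their median was 1.05 times the other controls, and 1 of them, the low-count Cfd, reached 1.5 times.

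By edgeR 0 of the 85 tested genes of these cell type lists passed between antibiotics and control, and 12 had an unadjusted p under 0.05, where 18.5% of all tested genes did. DESeq2 called 3 (Cd9, Arg1 and Bst2), where it called 6.68% of all, and limma-voom 0. Without control 2 fewer genes of these lists passed the filter on low counts, and by edgeR 0 of those passed the test. In the list of lipid-associated and other recruited macrophages, 4 of 8 tested genes had an unadjusted p under 0.05 (3 without control 2), against 18.5% of all tested genes (16.3% without control 2). The groups did not overlap for 2 of the 8, Cd9 and Arg1, named after their values were seen, against 8.88% of all. Cd9, a tetraspanin, had 28.7 ± 3.52 CPM in controls (SD, n = 5) and 19.6 ± 4.01 CPM with antibiotics (SD, n = 4; edgeR adjusted p = 0.0640, and 0.112 without control 2). Arg1, in liver chiefly a urea cycle enzyme of hepatocytes, had 1115 ± 99.4 and 1386 ± 155 CPM (adjusted p = 0.143, and 0.169 without control 2).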

How the data were processed

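Per the labels' protocols, liver RNA was extracted with Trizol, passed over RNeasy columns and turned into stranded mRNA libraries. The deposited values are estimated counts per gene that the authors obtained with Salmon and GRCm38, per the submitters' processing notes, and they were already whole numbers. Its version, the annotation and the use of strand are not given in these sources. All 54393 gene identifiers occur in GENCODE M21, which gave symbols, positions and exon lengths.

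filterByExpr of edgeR 4.0.16 (minimum count 10, minimum total 15) chose the genes tested. TMM-scaled counts entered a quasi-likelihood F test (R 4.3.3) with group as its single term. P-values were adjusted over all tested genes by Benjamini and Hochberg, and an adjusted p under 0.05 counted as a pass. The scripts were tested on simulated data. CPM are on TMM-scaled libraries, and errors are SDs over libraries or SEs of the log2 fold change. Totals were 15422891 to 59179622 counts, and no pair of libraries of a group agreed within sampling noise (lowest chi-square per degree of freedom 20.2).

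The text names the 10 genes, up to 3 genes with the smallest p in each of 6 lists, and the 5 genes most like the mean of the 10; others are said to be chosen after their values were seen. Of the genes most like Marco, 1 is not reported here. The 10 genes, the lists and the rule were chosen with earlier results of these data known. Promoters came from a RefSeq table (GRCm38.p6), and close copies were searched with BLAST+ 2.17.0 (95% identity over 200 nt). Alternative settings were other scaling factors (RLE, upper quartile), other tools (DESeq2 1.42.0 and voom of limma 3.58.1), other filters, library sizes without the 10 most abundant genes, thinning, a replicate block and leaving out each library.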

Additional observations from a re-analysis of the deposited data

Results flagged for a closer look

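In 58 groups of libraries tested for a single distant value (the 10 genes, their sum and 18 named genes of the macrophage lists, each in both groups), 14 were found. Chance gives about 1 in 20 independent groups, but these are not independent, since the genes vary together and 12 of the 14 are control 2. Control 2 was also set aside by a rule chosen with earlier results of these data known. The 12 values in it therefore describe a library already picked, and the rate of 1 in 20 does not apply to them. Control 2 was far above the other controls for 9 of the 10 marker genes. Its levels were 10.02 CPM for Timd4, 31.9 for Vsig4, 32.0 for Marco, 152 for Cd5l, 30.8 for Adgre1, 85.6 for Csf1r, 65.1 for C1qa, 70.5 for C1qb and 14.1 for Cd68. Clec4f, at 130 CPM with control 1 next at 80.9, was less distant. The summed level of the 10 genes in control 2 was 622 CPM, with 292 CPM in the next control.

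Control 2 was likewise apart for Ctss (63.5 CPM, next 28.2) and Slc11a1 (11.9 CPM, next 6.07). Among the antibiotics libraries, replicate 5 was apart for Marco (10.7 CPM, next 2.76), and replicate 2 was low for Slc48a1 (29.7 CPM, next 35.6).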

How the results depend on the processing

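Of 555 values recomputed under the alternatives, 3 reversed, 2 newly passed the threshold, 1 (the median without control 2) moved by more than the spread, and the other 549 did none of these. The count of the 10 genes that passed was 0 in each direction under all of them. Their median log2 fold change of -0.43 ran from -0.56 (without control replicate 4) to -0.0850 (without control replicate 2) when single libraries were left out. Reversals occurred without control 2 only: Timd4 ran from -0.49 to 0.0017 as single libraries were left out, C1qa from -0.43 to 0.052 and Cd68 from -0.38 to 0.095, each lowest without control 4. Deviations of same-numbered libraries were only weakly correlated (-0.0022, -0.06, 0.03 and 0.10), and 2 of 4 controls correlated best with their own number. These few values cannot settle whether replicate numbers pair the libraries. With a replicate block the median of the 10 genes was -0.46, 0 of them passed, and 169 genes passed in place of 398; Hmox1 then passed (-0.78, adjusted p = 0.0416), as with DESeq2 (-0.73, adjusted p = 0.0241), while its adjusted p was 0.0714 to 0.296 in the other fits.

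The number of genes passing overall was 976 of 14608 with DESeq2, 214 after thinning, and 36 to 455 when a library was left out: 171, 165 and 144 without controls 1, 2 and 4, 53, 216, 56 and 36 without antibiotics 1, 2, 3 and 5. The causes were not tested. Depth was lowest for Marco, with 26 to 50 counts in 3 antibiotics libraries.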
